A study of Mus musculus with 24 samples.

Results

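The sarcomeric myosin heavy chains are the motor proteins of the thick filament, and the 8 genes described here (Myh1, Myh2, Myh3, Myh4, Myh6, Myh7, Myh7b and Myh8) were chosen by name, with symbols matched to the Ensembl identifiers of the count table. They are 8 of the 55416 genes in that table and 8 of the 16408 genes tested. RNA from skeletal muscle, given as gastrocnemius in the study's methods, was sequenced from 24 mice in 4 groups of 6, namely males and females kept either under sham or under SMC conditions. SMC is housing in a small mouse cage, an acrylic box that leaves little room to move, for 8 weeks, and sham mice were free to walk. The strain is spelled C56BL6J in the labels and is C57BL/6J in the study's methods, where the mice were bought at 8 weeks of age. Per the study's methods, mice of all groups were injected with ketamine and xylazine before tissue was taken, and no transgene is given for any group in the labels. The comparisons ask whether restricted movement was accompanied by a different myosin composition in either sex, whether the sexes differed in that response, and whether sham males differed from sham females. The male and the female comparison share no mice, and the last pair of comparisons reuses the sham mice of both.

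Each skeletal muscle fibre is classed by the heavy chain it mainly contains, since the heavy chain sets how fast the fibre splits ATP and shortens. Myh7 encodes the slow type I chain, which is also the beta chain of the heart, Myh2 the fast oxidative IIa chain, Myh1 the IIx chain, and Myh4 the IIb chain of the fastest and most glycolytic fibres. Myh3 (embryonic) and Myh8 (perinatal) serve developing and regenerating muscle, Myh6 encodes the alpha chain of the heart, and Myh7b encodes a slow-type chain transcribed at low level in muscle and heart. Hindlimb muscles of the mouse are mostly built from fast fibres, with slow fibres gathered in deep regions of the muscle. In RNA from whole muscle, fewer fibres of a type and less RNA per fibre cannot be told apart.

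Of the genes, 5 lie head to tail on the plus strand of chromosome 11 in the order Myh3, Myh2, Myh1, Myh4 and Myh8 in GRCm38 (GENCODE M21), from the start of Myh3 (chr11:67078300-67102291) to the end of Myh8 (chr11:67277124-67308634). Myh6 (chr14:54941921-54966927) and Myh7 (chr14:54970684-54994626) are neighbours on the minus strand of chromosome 14, and Myh7b (chr2:155611212-155634307) is on the plus strand of chromosome 2. The counts themselves were made on a later build, GRCm39, so these coordinates describe the reference sequence used here and not the count table. The family is so alike that the sequence decides how far short reads can tell its members apart. The coding sequences of Myh1 and Myh2 were identical at 90.9% of aligned bases, those of Myh1 and Myh4 at 90.1%, those of Myh7 and Myh6 at 91.7%, and those of Myh7 and Myh4 at 77.4%. The 45-base windows below are shown because they mark the extremes of that likeness among the 4 adult chains. The first set is the window with the most differences, averaged over all pairs of these 4 chains. Only windows without gaps that lie within a single exon of each gene were considered. Capitals mark bases that differ from Myh4. It lies in exon 17 of Myh7 (chr14:54987231-54987275, minus strand), exon 16 of Myh2 (chr11:67181290-67181334, plus strand), exon 16 of Myh1 (chr11:67209108-67209152, plus strand) and exon 15 of Myh4 (chr11:67248701-67248745, plus strand).
Myh7: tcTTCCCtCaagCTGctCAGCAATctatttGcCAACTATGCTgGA
Myh2: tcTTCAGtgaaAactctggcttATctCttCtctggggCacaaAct
Myh1: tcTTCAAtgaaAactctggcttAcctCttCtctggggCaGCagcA
Myh4: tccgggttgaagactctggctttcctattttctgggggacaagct
In this window Myh7 differed from Myh4 at 29 bases, Myh1 at 13 and Myh2 at 12, so a read over it can be told apart among these 4 chains. The other members were not compared in this window.

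The second set is a window further along the coding sequence, in exon 28 of Myh7 (chr14:54979245-54979289), exon 27 of Myh2 (chr11:67189592-67189636), exon 27 of Myh1 (chr11:67215191-67215235) and exon 26 of Myh4 (chr11:67253427-67253471).
Myh7: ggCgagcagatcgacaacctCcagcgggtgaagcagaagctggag
Myh2: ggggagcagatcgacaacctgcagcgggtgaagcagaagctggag
Myh1: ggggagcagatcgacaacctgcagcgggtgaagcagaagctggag
Myh4: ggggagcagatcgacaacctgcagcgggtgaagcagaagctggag
Here Myh2, Myh1 and Myh4 were identical and Myh7 differed at 2 bases. Over whole transcripts, 26.9% of the 50-base stretches of Myh2, 26.7% of those of Myh1, 18.9% of those of Myh4 and 22.2% of those of Myh7 also occurred in another heavy chain gene. The share was 21.4% for Myh8, 22.6% for Myh6 and 4.81% for Myh3, and it was 0 for Myh7b. All 1373 shared stretches of Myh7 were shared with Myh6, and 1186 of the 1623 of Myh2 with Myh1. How the study counted reads that fit several genes is not given in the sources used here, so small values of Myh6 beside Myh7, and of Myh8 beside the abundant fast chains, are uncertain.

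Library totals ran from 23026627 to 36880413 counts with a median of 27461328, and 24 of 24 libraries matched their labelled sex. Skeletal muscle markers (Acta1, Ckm, Ttn, Des and Mb) were abundant in every library, with a summed level of 108435 to 288562 CPM, counts scaled to a common library size. All CPM values here also carry the TMM factor of edgeR for RNA composition. Ttn, the most abundant of these markers, ran from 78845 to 240021 CPM in the 12 sham mice and from 177781 to 229046 CPM in the 12 SMC mice. Of the cardiac markers, Myl7 had 0 counts in 24 of 24 libraries and Nppa 0 counts in 22. The 4 cardiac markers together reached at most 3.30 CPM. Markers of other tissue moved with the groups in places. The summed smooth muscle markers (Myh11, Acta2, Tagln and Cnn1) were 74.3 to 107 CPM in male sham and 118 to 252 CPM in male SMC mice, with all 4 at an unadjusted p under 0.05, as were 11% of all genes. In females, 3 of 4 tendon markers and 2 of 4 fibroblast markers were lower with SMC at an unadjusted p under 0.05. In either direction, 12.5% of all genes reached that level. None of these markers passed an FDR of 0.05 in edgeR's quasi-likelihood test, and the part of these markers or of Ttn in the myosin values was not tested.

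A pair of sham mice stood apart from all others in this family. In male sham replicate 4, Myh7 reached 7.99 CPM (193 counts) against a median of 582 CPM in the other 5 male sham mice, which was 72.9-fold lower (95% counting interval 63.3 to 84.4). In female sham replicate 7, Myh7 reached 7.02 CPM (144 counts) against a median of 996 CPM, 142-fold lower (120.6 to 168). The next lowest mouse of the whole series was at 275 CPM. Myh2 in these mice was at 162 and 165 CPM, 27.9-fold and 23.2-fold below the medians of the other mice of their groups, and Myh1 was at 909 and 1222 CPM, 4.23-fold and 4.32-fold below. Myh4 went the other way, with 66457 and 80936 CPM, 1.52-fold and 2.19-fold above those medians. The slow, IIa and IIx chains were thus the lowest or second lowest of 24 in both mice, and IIb the highest or second highest.

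The minor chains Myh6 and Myh7b were also lowest in the same 2 mice. Myh6 had 0 counts in male sham replicate 4. Taking up to 3 counts or 0.124 CPM as a one-sided limit, it was at least 19-fold lower than the median of the other male sham mice. By the two-sided 95% counting interval used for the other ratios, it was at least 15.5-fold lower. Myh6 had 1 count in female sham replicate 7, a ratio of 111 with a counting interval of 19.9 to 4374. Myh7b had 1 count in male sham replicate 4, a ratio of 134 (24 to 5282), and 2 counts in female sham replicate 7, a ratio of 144 (39.9 to 1189). These intervals cover counting error only. The 11 other slow fibre genes on the list used here, such as Tnnt1 and Tnni1 of the slow troponin complex, summed to 96.1 and 77.5 CPM in these mice and to 459 to 2863 CPM in the other 22. The 12 fast fibre genes summed to 92491 and 102540 CPM, against 47587 to 89620. Mb, the oxygen store of oxidative fibres, had its 2 lowest values of 24 in these mice, at 175 and 145 CPM, while Acta1 was among the higher values at 24822 and 27217 CPM. Results for the members below are therefore given for all 24 mice and, for many of them, also without these 2 mice. Fitted differences of genes outside the family are given for all 24 mice only, so their values without this pair are not shown. Because the 2 mice were set apart by their own myosin values, p-values without them are not adjusted for that choice and serve as description.

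**Figure D1:**
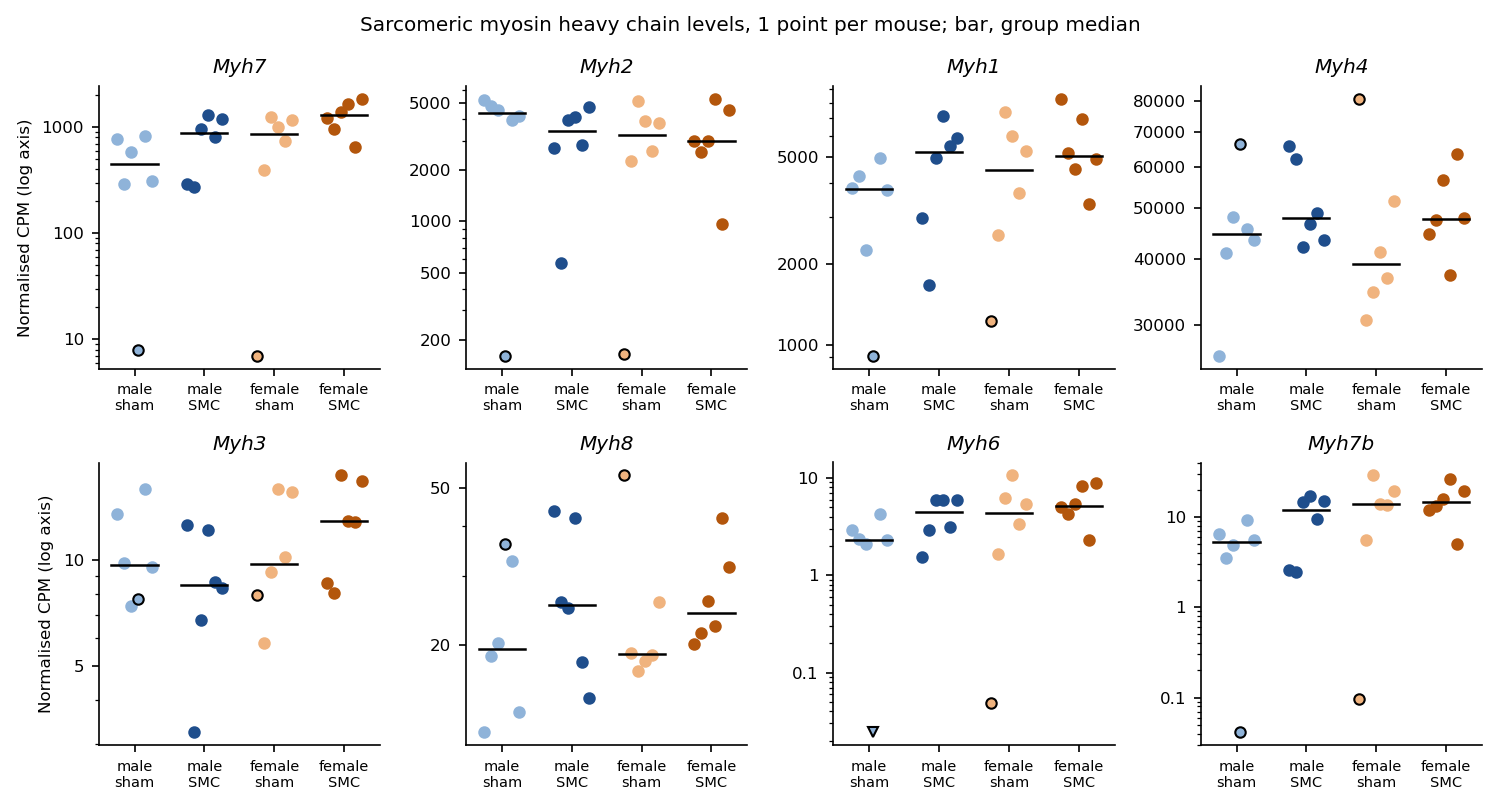
Normalised CPM on a log axis of each of the 8 myosin heavy chains in the 24 mice, grouped by sex and housing, with 1 point per mouse and a bar at the group median; male sham replicate 4 and female sham replicate 7 have black outlines, and the triangle marks Myh6 at 0 counts, drawn below the lowest value. Both outlined mice sit far below the rest for Myh7 (7.99 and 7.02 CPM), Myh2, Myh6 and Myh7b and at or near the top for Myh4.

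Myh4 dominated the family in every mouse. Per kilobase of transcript, its median level was 7685 CPM per kb, followed by Myh1 at 779, Myh2 at 638, Myh7 at 131, Myh8 at 3.56, Myh7b at 1.73, Myh3 at 1.61 and Myh6 at 0.623 CPM per kb. Myh4 exceeded Myh1 in 24 of 24 mice, by a median of 9.76-fold. Myh1 exceeded Myh2 in 20 of 24 mice, by a median of 1.39-fold, and the 4 exceptions were in the male sham group, where Myh2 was the higher of the pair in replicates 1, 2, 3 and 6. Myh2 exceeded Myh7 in 24 of 24 mice (median 4.05-fold). Myh7 exceeded Myh8 in all but the 2 low sham mice, in 22 of 24. Myh7b exceeded Myh3 in 11 of 24 mice, so the order of that pair was not set, while Myh3 exceeded Myh6 in 24 of 24.

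Together the 8 genes held 4.38% to 7.03% of all counts in a library, with a median of 5.52%. Myh4 alone took 71.4% to 98.3% of the summed family counts. Myh1 took 1.3% to 15.3%, Myh2 0.200% to 14.5% and Myh7 0.00852% to 3.18%. The 4 minor chains together took 0.0529% to 0.136%. Shares within a mouse add up to 100%, so a higher share of one chain is a lower share of the rest.

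**Figure D2:**
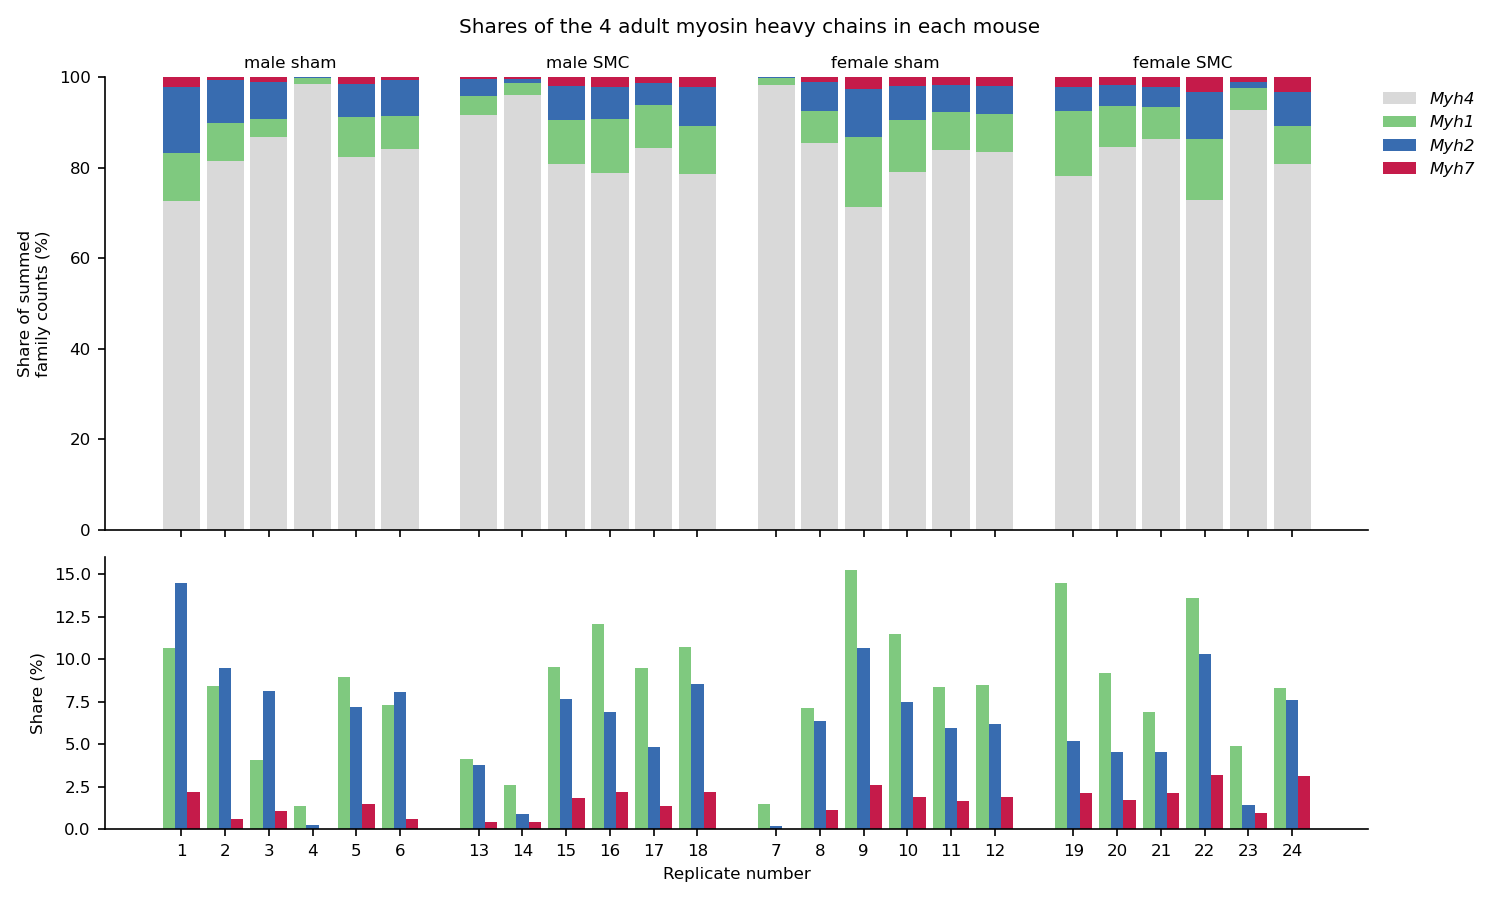
Share of the summed family counts taken by Myh4, Myh1, Myh2 and Myh7 in each of the 24 mice, stacked to 100% in the upper panel and drawn side by side without Myh4 in the lower panel, with mice labelled by replicate number. Myh4 fills 98.3% and 98.2% of the bars of male sham replicate 4 and female sham replicate 7, and the other chains vary several fold within each group.

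No myosin heavy chain passed an FDR of 0.05 for SMC against sham in either sex. Of the 8 genes, 0 passed in males, where 0.00% of all genes tested passed, and 0 passed in females, where 0.341% passed. At an unadjusted p under 0.05, the count of members was also 0 in both sexes, against 11% of all genes in males and 12.5% in females. DESeq2 and limma with sample weights, run as alternatives, also called 0 of the 8 in either sex. In no member did the 6 SMC mice lie clear of the 6 sham mice (0 of 8 in either sex, against 0.902% of all genes in males and 1.03% in females). The lowest FDR of any member over the 32 settings run was 0.306 in males (Myh8, limma with sample weights) and 0.351 in females (Myh4, without male sham replicate 4 and female sham replicate 7). With this spread the intervals were wide, and a change of the size listed for each gene below is not shown to be absent.

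Myh7, the slow chain, ran from 7.99 through a median of 445 to 831 CPM in male sham and from 275 through 880 to 1294 CPM in male SMC mice. In females it ran from 7.02 through 864 to 1251 CPM in sham and from 646 through 1307 to 1845 CPM in SMC mice. The SMC medians were above the sham medians in both sexes, and the groups overlapped. The fitted difference was 0.78 on the log2 scale in males (SE 0.73, 95% interval -0.71 to 2.28, FDR 0.757 in edgeR) and 0.76 in females (SE 0.72, interval -0.74 to 2.25, FDR 0.736). Without the 2 low sham mice the differences were 0.52 (SE 0.40) and 0.50 (SE 0.40), or 1.43-fold and 1.41-fold.

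Myh2, the IIa chain, ran from 162 through 4351 to 5226 CPM in male sham and from 571 through 3399 to 4738 CPM in male SMC mice. In females the values were 165, 3220 and 5162 CPM in sham and 962, 2974 and 5288 CPM in SMC mice. Apart from replicate 4, the male sham mice lay close together at 3987 to 5226 CPM. The fitted difference was -0.27 in males (SE 0.61, FDR 0.917) and 0.10 in females (SE 0.61, FDR 0.970) on the log2 scale in edgeR. Without the 2 low sham mice it was -0.53 in males (SE 0.38, FDR 0.590) and -0.15 in females (SE 0.38, FDR 0.889), so the direction in females depended on them.

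Myh1, the IIx chain, ran from 909 through 3816 to 4978 CPM in male sham and from 1675 through 5249 to 7165 CPM in male SMC mice. In females the values were 1222, 4474 and 7401 CPM in sham and 3357, 5075 and 8281 CPM in SMC mice. The edgeR difference was 0.49 in males (SE 0.39, FDR 0.706) and 0.35 in females (SE 0.39, FDR 0.786), and both were smaller, 0.29 and 0.16, without the low sham mice.

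Myh4, the IIb chain, varied least. It ran from 26182 through 44680 to 66457 CPM in male sham, from 42187 through 47890 to 65646 CPM in male SMC, from 30642 through 39128 to 80936 CPM in female sham and from 37302 through 47834 to 63405 CPM in female SMC mice. Its coefficient of variation over 24 mice was 26.2%, against 43.8% for Myh1, 47.7% for Myh2 and 59.9% for Myh7. The fitted difference was 0.19 in males (SE 0.23, FDR 0.823) and 0.11 in females (SE 0.23, FDR 0.894) on the log2 scale, and 0.32 and 0.35 (both SE 0.18) without the low sham mice.

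**Figure D3:**
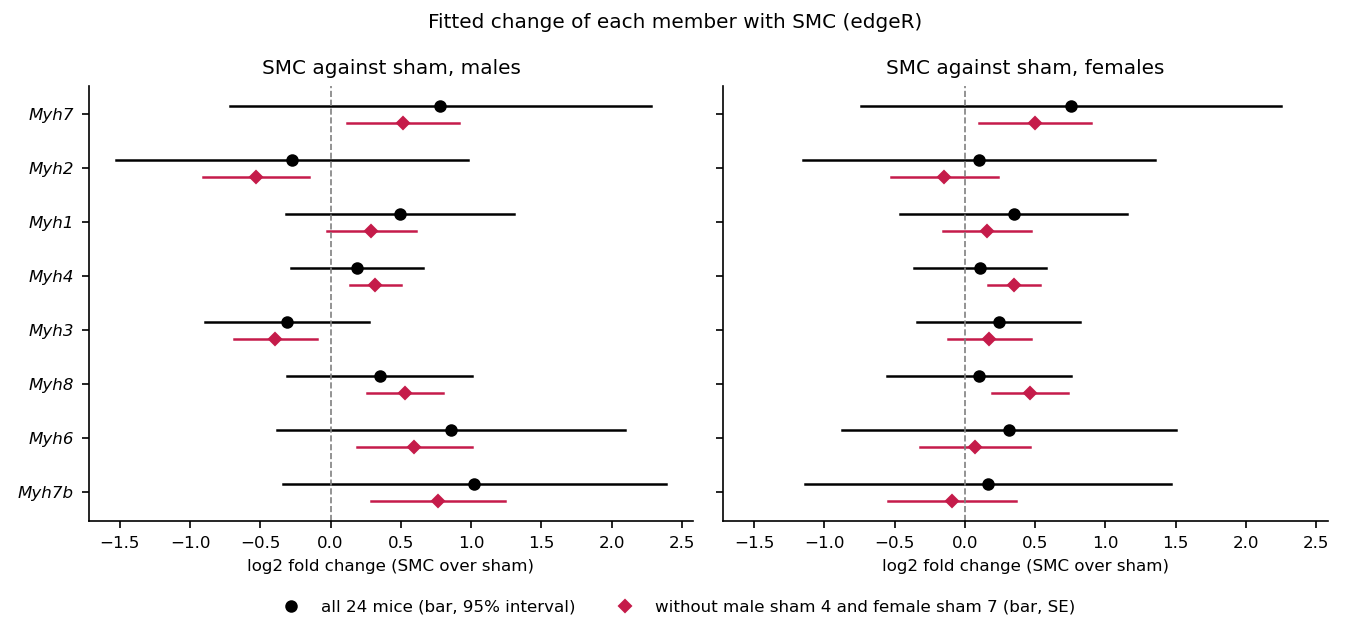
log2 fold change of SMC over sham for each myosin heavy chain in males and females from the edgeR fit, with 95% intervals for all 24 mice (black circles) and standard errors for the fit without male sham replicate 4 and female sham replicate 7 (red diamonds). Every black interval spans 0, and Myh2 and Myh7b in females change sign when the 2 mice are left out.

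The developmental chains were scarce in all groups. Myh3 lay between 3.25 and 17.4 CPM, with medians of 9.71 CPM in sham and 8.50 CPM in SMC males, and of 9.74 CPM in sham and 12.9 CPM in SMC females. Myh8 lay between 12 and 53.9 CPM, and its highest value belonged to female sham replicate 7. Its medians were 19.5, 25.3, 19 and 24.1 CPM in the same order of groups. The edgeR differences were -0.31 and 0.24 for Myh3 and 0.35 and 0.10 for Myh8 in males and females, with FDR values of 0.753 to 0.937. Without the 2 low sham mice they were -0.39 and 0.17 for Myh3 and 0.53 and 0.46 for Myh8, with FDR values of 0.414 to 0.824. Markers of regenerating or denervated fibres were low as well. Of Myog, Mymk, Mymx, Chrna1, Chrng and Ncam1, the 3 that could be tested (Myog, Chrna1 and Ncam1) did not pass in either sex. At an unadjusted p under 0.05 in edgeR, 1 of these 3 was higher with SMC in females and 0 were lower, while in males 0 reached that level. In females 12.5% of all genes reached it in either direction. The 6 genes together reached 19.8 to 43.3 CPM.

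Myh6 and Myh7b, the remaining chains, were counted at 0 to 10.6 CPM and 0.0414 to 28.9 CPM. The Myh6 medians were 2.33 CPM in sham and 4.51 CPM in SMC males, and 4.39 CPM in sham and 5.21 CPM in SMC females. Those of Myh7b were 5.23, 11.9, 13.8 and 14.6 CPM in that order. Male differences were 0.86 for Myh6 (SE 0.60, FDR 0.656) and 1.02 for Myh7b (SE 0.66, FDR 0.612) on the log2 scale in edgeR. Female differences were 0.32 and 0.16. Without the low sham mice the male values were 0.60 and 0.76, and the female values were 0.0707 and -0.0916. The male sham mice were the lowest group for both genes. Part of the Myh6 count may belong to Myh7, given the stretches they share.

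The response to SMC was not shown to differ between the sexes for any member. Differences of the male and the female change ranged from -0.55 (Myh3, SE 0.40) to 0.86 (Myh7b, SE 0.91) on the log2 scale. Of the 8 genes, 0 passed an FDR of 0.05 in edgeR, where 0.00% of all genes passed, and 0 reached an unadjusted p under 0.05, where 5.13% of all genes did. DESeq2 called 0 of the 8 as well. Among sham mice, 0 of the 8 differed between males and females at an FDR of 0.05, where 1.97% of all genes did, and in 0 of the 8 were the sham groups clear of each other (1.13% of all genes). Myh7b was the only member at an unadjusted p under 0.05 there (15.5% of all genes). It was lower in males, with 4.99 ± 3.11 CPM against 13.6 ± 10.2 CPM (SD, n = 6 each), a log2 difference of -1.45 (SE 0.66, FDR 0.287 in edgeR). Myh6 and Myh7 leaned the same way, at -0.98 (SE 0.60) and -0.70 (SE 0.72). Without the 2 low sham mice the values were -1.44 for Myh7b (FDR 0.106), -0.97 for Myh6 (FDR 0.204) and -0.70 for Myh7 (FDR 0.358). Myh2 was on the other side of 0, at 0.35 (SE 0.61). This comparison shares its sham mice with those above.

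Family shares gave the same picture. Myh7 made up 0.981% ± 0.763 of the family in male sham and 1.40% ± 0.814 in male SMC mice (mean ± SD, n = 6), and 1.52% ± 0.881 in female sham and 2.20% ± 0.851 in female SMC mice. Myh2 made up 7.93% ± 4.59 and 5.44% ± 2.85 in males and 6.14% ± 3.39 and 5.6% ± 3.04 in females. Myh1 made up 6.80% ± 3.46 and 8.09% ± 3.81 in males and 8.70% ± 4.59 and 9.57% ± 3.77 in females. Myh4 made up 84.2% ± 8.40 and 85% ± 7.28 in males and 83.5% ± 8.80 and 82.5% ± 6.91 in females. All differences lay within the spread between mice. Without the 2 low sham mice, the SMC minus sham difference of the Myh7 share was 0.222 percentage points in males in place of 0.416 and 0.371 in females in place of 0.675, and that of the Myh1 share in males was 0.203 in place of 1.29. Of 16 two-sided exact permutation tests on these shares, over the 4 chains and 4 comparisons, 0 gave a p under 0.05, and the lowest was 0.201 (Myh7 in females). Without male sham replicate 4, the Myh2 share in males gave an SMC minus sham difference of -4.03 percentage points in place of -2.49 (exact permutation p = 0.0455), while the fitted Myh2 level did not pass. That mouse was left out for its own low Myh2, so this p cannot serve as a test.

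Myh7 relative to Myh2 was the measure that separated the groups best, and it was examined only after the values had been seen. Ratios within a mouse do not depend on library size or on Myh4. In male sham mice there were 14.9, 6.09, 12.9, 4.94, 20.8 and 7.36 Myh7 counts per 100 Myh2 counts in replicates 1 to 6. In male SMC mice there were 10.7, 48.2, 24, 31.5, 28.6 and 25.2 in replicates 13 to 18. Of the 6 male SMC mice, 5 lay above every male sham mouse, and replicate 13 was the exception. In female sham mice there were 4.26, 17.4, 24.2, 25.3, 28 and 30.5 in replicates 7 to 12. In female SMC mice there were 41.2, 37.4, 46.7, 30.9, 67.2 and 40.8 in replicates 19 to 24. The female groups did not overlap, though the highest sham mouse (30.5) and the lowest SMC mouse (30.9) were nearly equal. Of all single genes tested, 1.03% did not overlap between the female groups. Ratios of gene pairs outside the family were not examined, so how often a picked ratio separates the groups is not known.

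The mean log2 ratio was 1.38 higher with SMC in males, or 2.61-fold (two-sided exact permutation p = 0.0173). It was 1.21 higher in females, or 2.32-fold (exact permutation p = 0.00216, the smallest that 924 splits of 6 against 6 allow). In all, 6 ratios between the 4 adult chains were compared in 4 ways, which made 24 tests, and these were the 2 with a p under 0.05. Adjusted over the 24 ratio tests by Benjamini-Hochberg, the values were 0.208 and 0.0519, so neither passed that correction. A difference of this change between the sexes was not detectable (difference 0.17, exact permutation p = 0.816). Without the 2 low sham mice the differences were 1.19 in males (exact permutation p = 0.0303) and 0.79 in females (exact permutation p = 0.00433). Without male SMC replicates 13 and 14 and female SMC replicate 23, the SMC mice with the highest Myh4 share, they were 1.47 and 1.08. With each mouse left out in turn, the difference ran from 1.19 to 1.64 in males and from 0.79 to 1.36 in females.

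**Figure D4:**
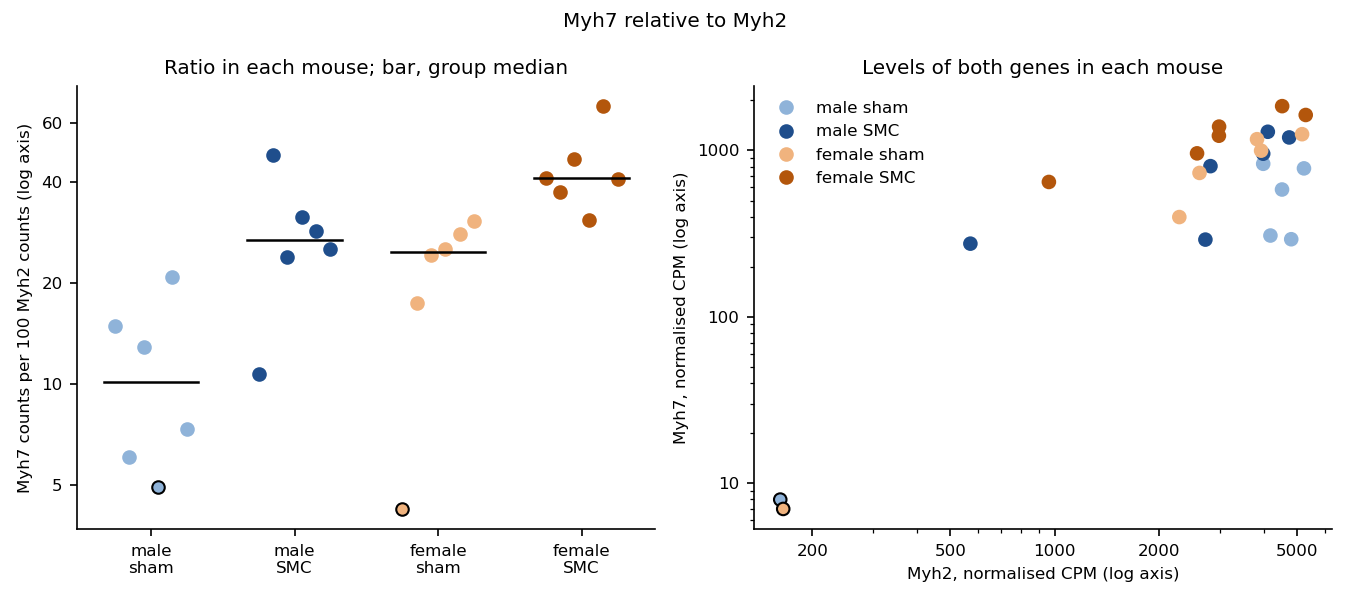
Left, Myh7 counts per 100 Myh2 counts in each mouse on a log axis, with a bar at the median of each group; right, normalised CPM of Myh7 against Myh2 in the same mice on log axes, with male sham replicate 4 and female sham replicate 7 outlined in black. Ratios are 4.94 to 20.8 in male sham, 10.7 to 48.2 in male SMC, 4.26 to 30.5 in female sham and 30.9 to 67.2 in female SMC mice.

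None of the other 5 ratios reached a p under 0.05 between SMC and sham mice with all mice included. In males, the log2 difference was 0.51 for Myh1 to Myh2 (exact permutation p = 0.359), 0.88 for Myh7 to Myh1 (exact permutation p = 0.303) and 1.19 for Myh7 to Myh4 (exact permutation p = 0.465). In females these were 0.05, 1.17 (exact permutation p = 0.0996) and 1.51 (exact permutation p = 0.329). Without the low sham mice, Myh7 to Myh1 was 0.22 in males and 0.34 in females, and Myh7 to Myh4 was 0.0691 in males and 0.18 in females. Without male sham replicate 4, Myh1 to Myh2 was 0.97 higher in male SMC mice (exact permutation p = 0.0108). Among sham mice, the ratios to Myh2 were lower in males than in females once both low mice were left out, by -1.13 for Myh7 and -0.74 for Myh1 on the log2 scale (exact permutation p = 0.0159 each), and were at -0.91 and -0.68 with them (exact permutation p = 0.123 and 0.342). The mice left out were picked by values of these same genes, so the p-values without them cannot serve as a test.

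Genes that work with the heavy chains were counted beside them. Of 11 slow fibre genes other than Myh7, 0 passed in either sex. Their median log2 difference was 0.42 in males and 0.54 in females, against a median over all genes of -0.0044 and -0.011, with 6 and 10 of the 11 above 0. Most varied with Myh7 and had the same wide spread, such as Tnni1, the slow inhibitory troponin (0.65, SE 0.68 in males and 0.82, SE 0.68 in females), and Tpm3, the slow tropomyosin (0.55, SE 0.46 and 0.54, SE 0.46). Myl6b, an alkali light chain of slow muscle, had the tightest estimate, 0.42 (SE 0.14, FDR 0.270) and 0.48 (SE 0.14, FDR 0.112) in edgeR. All these slow gene values include male sham replicate 4 and female sham replicate 7, where the 11 genes summed to 96.1 and 77.5 CPM. In the other 22 mice the sum was 459 to 2863 CPM, and differences without this pair are not shown. Of 12 fast fibre genes, 0 passed, with medians of 0.0045 and 0.14 and with 7 and 11 of the 12 above 0. Of all genes, 49.1% in males and 47.6% in females were above 0. Casq1, the calsequestrin of fast fibres, had the lowest unadjusted p in both sexes (0.30, SE 0.14, FDR 0.454 in males and 0.27, SE 0.14, FDR 0.460 in females).

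Of 18 transcription factors and coactivators that set fibre type, 0 passed in either sex. At an unadjusted p under 0.05, 6 were higher in males (11% of all genes reached this level in either direction), and 3 were higher and 1 lower in females (12.5%). Nfatc1, a calcineurin-dependent factor that favours slow genes, was at 0.30 in males (SE 0.09, FDR 0.209) and 0.26 in females (SE 0.09, FDR 0.199). Prox1, a homeobox factor of slow fibres, was at 0.61 (SE 0.25, FDR 0.353) and 0.64 (SE 0.25, FDR 0.257). Maf, a leucine zipper factor that activates Myh4, was at 0.38 in males (SE 0.16, FDR 0.369).

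The 3 genes of myosin folding, Unc45b, Smyd1 and Hsp90aa1, lay between -0.22 and 0.05 in both sexes on the log2 scale. Of 7 tested thick filament partners, 0 passed for SMC in either sex. Mybph, a myosin-binding protein, was at -0.80 in males (SE 0.32, FDR 0.337), and Ttn, which spans the sarcomere from Z-disc to M-band, at 0.47 (SE 0.22, FDR 0.429). Mybph was also lower in sham males than in sham females, at -1.37 (SE 0.32, FDR 0.0243), the 1 listed partner that passed in that comparison. Of the other heavy chains, Myh13 of extraocular muscle was counted at 0.70 to 10.2 CPM, and Myh15 at no more than 10 counts. Among them Myh11, the smooth muscle chain, had the lowest unadjusted p, at 0.77 in males (SE 0.16, FDR 0.0901) and 0.36 in females (SE 0.16, FDR 0.345), beside the smooth muscle markers given above.

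Myh6, Myh7 and Myh7b each carry a microRNA in an intron, a small RNA made from the same transcript. The mature sequences (RefSeq, GRCm38.p6) lie at chr14:54949072-54949093 (miR-208a-3p, minus strand), chr14:54975710-54975731 (miR-208b-3p, minus strand) and chr2:155622893-155622913 (miR-499-5p, plus strand), and are shown because their seeds, bases 2 to 8 in capitals, place them in related groups.
miR-208a-3p (Myh6): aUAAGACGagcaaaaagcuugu
miR-208b-3p (Myh7): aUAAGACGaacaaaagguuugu
miR-499-5p (Myh7b): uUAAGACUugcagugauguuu
The seeds of miR-208a-3p and miR-208b-3p were the same, and that of miR-499-5p was close to it. The host genes of these 3 RNAs were the members most alike across mice, though Myh6 and Myh7 share stretches of sequence, as given above. Libraries of this kind do not retain RNA as short as a mature microRNA, and the hairpin genes had 0 counts (Mir208a), 0 to 11 counts (Mir208b) and 0 to 2 counts (Mir499), so the microRNAs themselves were not measured.

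The genes that overlap or adjoin the members were mostly RNA genes with low counts. Mhrt, an antisense RNA of the Myh7 locus, had 0 to 27 counts and 0 counts in both low sham mice. Its log2 difference was 1.40 in males (SE 0.82, FDR 0.553) and 2.11 in females (SE 0.69, FDR 0.164) in edgeR. Myhas, antisense to Myh1 and next to Myh4, had 360 to 917 counts and was at 0.22 in males and 0.36 in females (FDR 0.697 and 0.364). 2310065F04Rik, between Myh3 and Myh2, was at 0.45 in males and 0.25 in females (FDR 0.382 and 0.654), and at 0.66 in sham males against sham females (SE 0.19, FDR 0.0766). Of the 13 listed neighbours, the 5 that could be tested were these 3, 9430073C21Rik opposite Myh2, and Trpc4ap, a protein-coding gene whose end overlaps that of Myh7b, and 0 of them passed for SMC in either sex. The kit keeps strand, but whether counting used it is not given in the sources used here, so reads of these RNAs and of the members they overlap may not be fully separate.

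Across mice the members fell into patterns that followed their genome positions only in part. Over the 22 mice without the low pair, Spearman's rho of log2 CPM was 0.91 between Myh7 and Myh7b, 0.88 between Myh7 and Myh6 and 0.88 between Myh6 and Myh7b, of which Myh7b is on another chromosome. Myh1 was like them, with 0.78 to Myh7, while Myh2, its neighbour, reached 0.39 to Myh1 and 0.40 to Myh7. Myh4 was most like Myh8 (0.66) and ran against Myh2 (-0.50). Of the 50-base stretches of Myh8, 21.4% also occur in another heavy chain gene, so part of its count may belong to more abundant chains. The part of this in the likeness of Myh8 and Myh4 was not tested. These are descriptions over mice of 4 groups. All values of a mouse share its library, its dissection and its scaling, and no p is given.

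**Figure D5:**
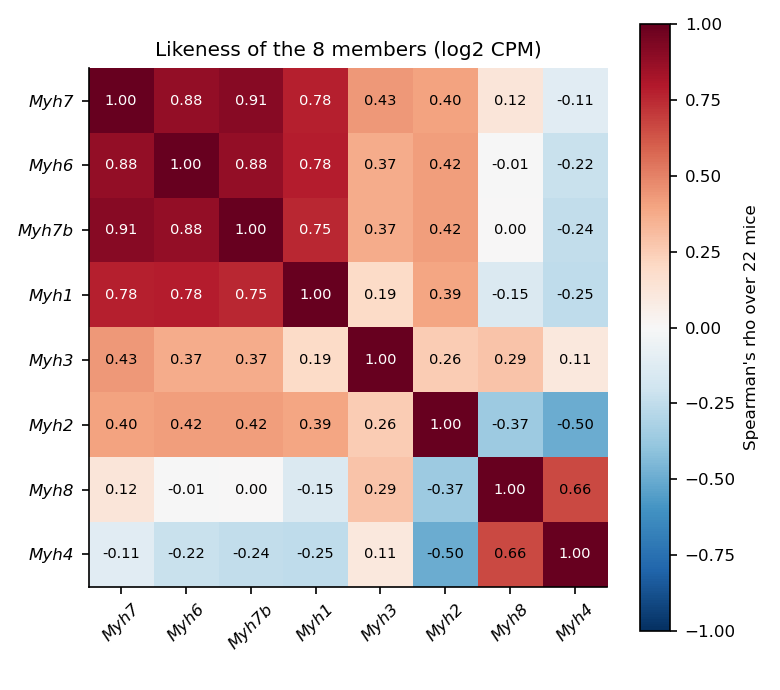
Spearman's rho between the log2 CPM of each pair of the 8 myosin heavy chains over 22 mice (without male sham replicate 4 and female sham replicate 7), on a colour scale from -1 (blue) to 1 (red). Myh7, Myh6, Myh7b and Myh1 form a block of high values (0.75 to 0.91), and Myh4 pairs with Myh8 (0.66). Myh6 and Myh8 share stretches of sequence with more abundant members, so their counts are uncertain.

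Outside the family, the genes most like each adult chain over all 24 mice were taken from the 7150 genes with a mean of at least 10 CPM. For Myh7 they were Tnnt1 (rho 0.99), Tpm3 (0.98), Tnni1 (0.98), Tnnc1 (0.97) and Atp2a2 (0.95), all parts of the slow contractile and calcium machinery. For Myh4 they were Pygm, the muscle glycogen phosphorylase (0.99), Mybpc2, the fast myosin-binding protein C (0.96), Ckm, the muscle creatine kinase (0.95), Hif1an (0.92) and Dpp8 (0.91). For Myh2 they were Fndc5, Fxyd6, Ndufab1, Mb, which encodes myoglobin, and Ephx2 (0.92 to 0.93). For Myh1 they were Zfp710, Rbfox2, Armcx4, Vps13c and Crybg3 (0.83 to 0.88). Without the low sham pair the values were 0.94 to 0.99 for Myh7, 0.90 for each of the Myh2 genes, 0.77 to 0.86 for Myh1 and 0.89 to 0.98 for Myh4.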

How the data were processed

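RNA from skeletal muscle of 24 mice was depleted of ribosomal RNA and made into stranded libraries. Per the labels and the submitters' processing notes, the authors trimmed reads with cutadapt 1.16, aligned them with STAR 2.7.9a to GRCm39, counted them per gene with featureCounts 1.6 and deposited raw counts in 1 table. The annotation release, the strand setting and the handling of reads that fit several genes are not given in the sources used here. The submitters' notes also list DESeq2 1.34.0. Symbols were matched by Ensembl identifier for 52083 of 55416 genes, and genes without one held 0.361% of counts.

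Counts were fitted with edgeR 4.0.16 in R 4.3.3 (filterByExpr, TMM, 1 mean per group over all 24 libraries, quasi-likelihood test), and FDR is the Benjamini-Hochberg value over 16408 genes with a threshold of 0.05. log2 CPM used a prior count of 2. Library totals of 23026627 to 36880413 counts set the precision of scarce genes. Shares and ratios were compared by two-sided exact permutation tests over all splits, and the test between groups was checked against scipy 1.17.1. For the sex difference in the response, sex labels were permuted within sham and within SMC mice. The p of that comparison therefore assumes no sex difference under either housing. Alternatives were DESeq2 1.42.0, limma 3.58.1 with sample weights, other scalings and filters, and libraries left out. Each library is 1 mouse, and p-values measure the spread between mice. No pair of libraries within a group was alike within sampling noise. Coding sequences were aligned with mafft 7.526. The edgeR and permutation steps were tested on simulated data.

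The members and gene lists were chosen with earlier results of these data known. From each list, up to 3 genes with the lowest unadjusted p per sex were named, with others named after their values were seen. For each adult chain the 5 genes with the highest Spearman's rho were named. The ratios between chains, and the fit without 3 SMC mice, were added after seeing the data. The value of 1 listed gene is not reported here.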

Additional observations from a re-analysis of the deposited data

Results flagged for a closer look

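In 48 sets of 6 mice (8 genes and 4 groups, plus the shares of the 4 adult chains), the most distant value was compared with the range of its set, and 9 lay further out than the limit of 0.625 of the range, where chance gives about 1 in 20 sets. Of these, 4 were in male sham replicate 4, 4 in female sham replicate 7 and 1 in another mouse. All 9 were log2 CPM levels, and no share was among them. The sets reuse the same mice and several members vary together, so the flags are not separate events. This pair had been picked for checking beforehand, so its flags are a description and no test. On the log2 CPM scale, Myh7 was at 3.01 in male sham replicate 4 (the other 5 mice 8.19 to 9.70) and at 2.83 in female sham replicate 7 (8.64 to 10.29). Myh2 was at 7.34 in male sham replicate 4 (11.96 to 12.35) and at 7.37 in female sham replicate 7 (11.16 to 12.33). Myh7b was at -3.14 (1.85 to 3.24) and -2.56 (2.48 to 4.86) in the same pair, and Myh6 was at -3.80 in male sham replicate 4 (1.12 to 2.11). Myh8, the perinatal chain, lay on the high side in female sham replicate 7, at 5.75 (4.11 to 4.69). The 1 value outside this pair was Myh2 in male SMC replicate 14, at 9.16 (11.41 to 12.21). The cause of these values was not tested.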

How the results depend on the processing

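No myosin heavy chain passed an FDR of 0.05 in any of the 32 settings run. Among the alternative log2 differences of single members, 199 kept their direction and 9 reversed, with values of -0.146 to 0.0793. Myh6 and Myh7b fell below the filter of at least 10 counts in every sample, so that setting did not test them. The 0 counts of Myh6 and 1 count of Myh7b in male sham replicate 4 came at a library total of 25468810, within the range of the other libraries. No paired analysis was possible because the groups share no replicate numbers.

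The number of genes passing was more sensitive. In males it was 0 in edgeR, 128 in DESeq2 and 93 in limma with sample weights, and 0 to 78 with 1 library left out (78 without male sham replicate 5). In females it was 56, with 268 in DESeq2, 215 without TMM factors, 16 in limma, 155 without male sham replicate 4 and female sham replicate 7, 14 with females fitted alone, and 0 to 147 with 1 library left out (0 without female SMC replicate 22, 147 without female sham replicate 9). The sex difference in the response gave 0, 1 in DESeq2 and 0 to 1 with 1 library left out. Sham males against sham females gave 324, with 575 in DESeq2, 179 without TMM factors, 511 without the low sham pair, 58 with sham mice fitted alone and 187 to 487 with 1 library left out (187 without male sham replicate 2, 487 without male sham replicate 4). Without TMM factors the median log2 difference of all genes shifted to -0.13 in males and -0.15 in females. The cause of these shifts was not tested.

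Directions that reversed, on the log2 scale, were as follows. Without TMM factors, Myh2 in females was at -0.0419, and between sham males and sham females Myh4 was at 0.0230 and Myh3 at 0.0355. In limma, Myh4 between the sham groups was at 0.000874, and with no filter Myh3 was at 0.000631. Without male sham replicate 4 and female sham replicate 7, Myh2 in females was at -0.15, Myh7b in females at -0.0916, the sex difference for Myh4 at -0.0298 and Myh4 between the sham groups at 0.08. With 1 library left out, females ranged over -0.15 to 0.32 for Myh2, -0.0615 to 0.46 for Myh8 and -0.0912 to 0.53 for Myh7b. The sex difference ranged over -0.24 to 0.28 for Myh7, -0.0709 to 0.33 for Myh1, -0.17 to 0.21 for Myh4 and -0.12 to 0.42 for Myh8. The sham groups ranged over -0.16 to 0.22 for Myh4, -0.16 to 0.13 for Myh3 and -0.38 to 0.16 for Myh8.

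For shares, without the low sham pair the Myh2 difference in males was -4.03 percentage points, that of Myh1 in females -0.577 and that of Myh4 in females 1.93. As a log2 ratio to Myh4, the female difference of Myh2 was 0.29 and the sex difference of Myh1 -0.0287. With 1 library left out, share differences ranged in males over -4.03 to -1.18 points for Myh2 and -1.55 to 3.60 for Myh4. In females they ranged over -1.72 to 0.366 for Myh2, -0.577 to 2.18 for Myh1 and -3.43 to 1.93 for Myh4. The sex difference ranged over -0.509 to 0.0447 for Myh7, -0.885 to 1.87 for Myh1 and -1.16 to 4.61 for Myh4, and the sham groups over -2.14 to 3.62 for Myh4.

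For log2 ratios, without the low sham pair the male Myh1 to Myh2 difference was 0.97, those of sham males against sham females were -1.13 for Myh7 to Myh2 and -0.74 for Myh1 to Myh2, that of Myh2 to Myh4 in females was -0.61, and those of Myh1 to Myh4 were -0.15 in males, -0.16 in females and 0.01 between the sexes. Without male SMC replicates 13 and 14 and female SMC replicate 23, Myh1 to Myh2 in females was -0.13, Myh2 to Myh4 in males 0.51, Myh1 to Myh4 in males 0.94, and the sex difference was 0.39 for Myh1 to Myh4 and 0.22 for Myh7 to Myh4. With 1 library left out, the male range was 0.27 to 0.97 for Myh1 to Myh2, -1.12 to 0.31 for Myh2 to Myh4 and -0.15 to 0.64 for Myh1 to Myh4. The female range was -0.13 to 0.45 for Myh1 to Myh2, 0.34 to 1.39 for Myh7 to Myh1, -0.61 to 0.68 for Myh2 to Myh4 and -0.16 to 0.60 for Myh1 to Myh4. The sex difference ranged over -0.0280 to 0.59 for Myh7 to Myh2, -0.95 to 0.54 for Myh7 to Myh1, -1.41 to 0.42 for Myh2 to Myh4, -0.49 to 0.47 for Myh1 to Myh4 and -1.44 to 1.01 for Myh7 to Myh4. The sham groups ranged over -1.33 to -0.71 for Myh7 to Myh2, -1.14 to -0.27 for Myh1 to Myh2, -1.06 to 0.43 for Myh7 to Myh1, -0.58 to 1.25 for Myh2 to Myh4, -0.85 to 0.11 for Myh1 to Myh4 and -1.91 to 0.54 for Myh7 to Myh4.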
